A study of Mus musculus with 71 samples.

Results

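RNA-seq libraries of R1 mouse embryonic stem cells (mESCs), 2 of WT cells and 2 of H1-TKO cells, were examined for the functions and expression classes that differed between the genotypes. Genes on chromosomes 1, 8, 11 and Y were left out. Of the 34010 RefSeq accessions in the tables, 11113 had a mean of at least 10 normalized counts over the 4 libraries, and 8849 of these lay on the remaining chromosomes and stood for 8672 genes. The study had 71 samples in all and asked how histone H1 affects the restoration of H3K27me3, a repressive histone mark, after DNA replication. Its other samples were not analysed here. In H1-TKO cells 3 genes of linker histones, H1c, H1d and H1e (H1f2, H1f3 and H1f4 in the tables), were disrupted with CRISPR/Cas9 in R1 cells, and clones grown from single cells were picked, so the difference between genotypes is also that between such a clone and the parental line. The edited cells were also selected with puromycin or neomycin after transfection. Both genotypes grew on gelatin in medium with leukemia inhibitory factor and gave poly(A) RNA. No other treatment of the cells used for RNA-seq is described. The study describes the replicates as 2 biological replicates done independently.

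The genotype of each library was taken from the names in the tables, R1 for WT and KO for H1-TKO. The sample labels name the same 4 libraries the other way round, and with those labels every direction given here would be reversed. The knocked-out genes did not settle this. H1f2 was at 11.6 and 56.7 normalized counts in WT against 18.7 and 7.4 in H1-TKO mESCs, so the genotypes overlapped. H1f3 had 3.9 and 41.4 in WT against 1.1 and 0.0 in H1-TKO mESCs, and H1f4, whose mean was below the minimum of 10, had 5.4 and 19.6 in WT against 0.0 and 2.1 in H1-TKO mESCs. These genes belong to a family whose messages mostly lack a poly(A) tail, and WT replicate 2 was the highest library for each of them.

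Linker histone H1 binds the nucleosome where DNA enters and leaves it and helps chromatin fibres to fold, and mammalian cells carry several interchangeable H1 variants. mESCs are derived from the early embryo and keep the capacity to form every tissue of the body. They divide quickly and make large amounts of ribosomes, proteasomes, membrane lipid and cytoskeleton.

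The WT libraries differed from each other more than the H1-TKO libraries did, with a median absolute difference of 0.34 on the log2 scale against 0.16. The second principal component, with 19.9% of the variance, put the WT libraries on opposite sides of the H1-TKO libraries. The accession of the ribosomal RNA precursor took 11.8% of the reads of WT replicate 2 against 1.98% to 2.08% in the others, while WT replicate 1 was the high library for Tagln, Krt8, Nes, Thbs1, Lrp2 and Car2. The libraries held 6951619 to 10538507 reads. The growth notes among the sample labels describe HeLa cells, a human line, but the cell type is labelled as mESCs. Of 10 markers of mESCs 8 passed the minimum, with a summed level of 28051.9 and 40995.3 normalized counts in WT against 47137.0 and 47770.7 in H1-TKO mESCs. The members did not move together. Dppa5a had 6834.9 and 8611.6 in WT against 14185.6 and 14435.4 in H1-TKO mESCs and Sox2 was higher as well, while Tdgf1 had 3502.8 and 3141.4 against 2227.8 and 2474.0, Sall4 1003.9 and 1627.4 against 734.9 and 714.1, and Pou5f1 overlapped, with 2641.6 and 5110.2 against 2585.9 and 2907.9. Nanog was listed at 0 in every library. The summed levels of the 6 fibroblast or feeder markers were 298.9 to 353.8 in WT and 506.8 to 576.1 in H1-TKO mESCs, with Postn and Dcn at 0. Thy1, which is not particular to fibroblasts, was the only one of them with a higher level in both H1-TKO libraries, at 109.4 and 125.4 in WT against 449.5 and 510.8 in H1-TKO mESCs (2.02, adjusted p = 0.0029). Without it the sums were 244.4 and 173.4 in WT against 57.3 and 65.3 in H1-TKO mESCs. On the longer list of fibroblast and feeder genes 3 of 8 tested members fell, Acta2, Tagln and Fbn1, and 1 rose, Thy1. The median of that list was −0.53, but it was 0.47 with a minimum mean of 100 and −0.16 without H1-TKO replicate 2. The summed levels of the 5 blood markers were 76.0 to 159.8 in all libraries, with Ptprc and Hba-a1 at 0. In bulk RNA, fewer cells of a type and less RNA per cell cannot be told apart.

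Levels are normalized counts, that is, reads divided by a size factor of the library, and they were compared between genotypes and not between genes. A difference is the log2 fold change of H1-TKO over WT on the scale of log2(normalized count + 1), which understates the change of low genes, and a gene rose or fell where the adjusted p of limma was under 0.05. The number of accessions that changed was 1668, or 18.8% of those kept, of which 822 rose (9.29%) and 846 fell (9.56%). Counted with 1 accession per gene, 19.1% of genes changed, 9.42% upwards and 9.67% downwards, and the median over all genes was −0.01. Changes of at least 2-fold made up 5.09% of genes upwards and 5.3% downwards. When the libraries were scaled by their totals without the ribosomal RNA precursor, 1045 accessions rose and 691 fell, so that 60.2% of the calls were upwards in place of 49.3%, and the median of all genes moved by 0.08. Without WT replicate 2, 21.5% of genes rose and 22.3% fell. The WT library that remains in such a fit is assumed to vary like the H1-TKO pair, so more genes pass, and list counts without a WT library are to be read against these shares and not as support. Gene lists are described by their counts and medians beside these shares, and the lists share some members.

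Cholesterol synthesis had the highest median of the 58 gene lists. Sterols are made from acetyl-CoA through mevalonate and squalene, and the membrane-bound factor Srebf2 switches on the genes of this route when sterols run low. Of the 19 tested genes of the list 12 rose and none fell, against 9.42% and 9.67% of all genes, and their median was 0.96. At an unadjusted p under 0.05 in limma 1 member was lower, and with edgeR and DESeq2 none was. The rises ranged from 0.45 to 2.37. Without WT replicate 1 the median was 1.01, and without WT replicate 2 it was 0.92.

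Fdft1, which joins farnesyl units into squalene, had 1008.6 and 997.0 normalized counts in WT against 2446.0 and 2399.2 in H1-TKO mESCs. Both H1-TKO libraries were above both WT libraries, and the difference was 1.27 ± 0.12 (SE, n = 2 per genotype, adjusted p = 0.00234). Sqle, which then oxidizes squalene, rose by 1.05 ± 0.13, from 1083.8 and 954.4 to 2109.9 and 2094.8 (adjusted p = 0.00464). Cyp51, the lanosterol demethylase (mm9 chr5:4081145-4104746), had 848.7 and 1005.7 in WT against 2368.9 and 2409.8 in H1-TKO mESCs and rose by 1.37 ± 0.14 (adjusted p = 0.00282). Insig1, a sterol sensor that holds back the Srebf2 protein and is itself one of its targets, rose by 1.24 ± 0.15, from 623.8 and 750.4 to 1553.5 and 1690.4 (adjusted p = 0.00432). Within each genotype the libraries of these 4 genes lay close together, and the genotypes did not overlap.

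Other members that rose were enzymes from the first to the last steps, among them Acat2, Idi1, Fdps, Lss, Nsdhl and Dhcr7, and Srebf2 itself. Srebf2 had the smallest rise, 0.45, from 3300.3 and 2983.2 to 4222.1 and 4374.0 (adjusted p = 0.0351). Fdps had few reads, with 13.2 and 4.4 in WT against 33.1 and 59.0 in H1-TKO mESCs. Members below the minimum included Hmgcs1 and Mvk. Of the 3 members on chromosomes left out, Msmo1 on chromosome 8 had 944.2 and 860.6 in WT against 3925.7 and 4290.8 in H1-TKO mESCs.

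**Figure D1:**
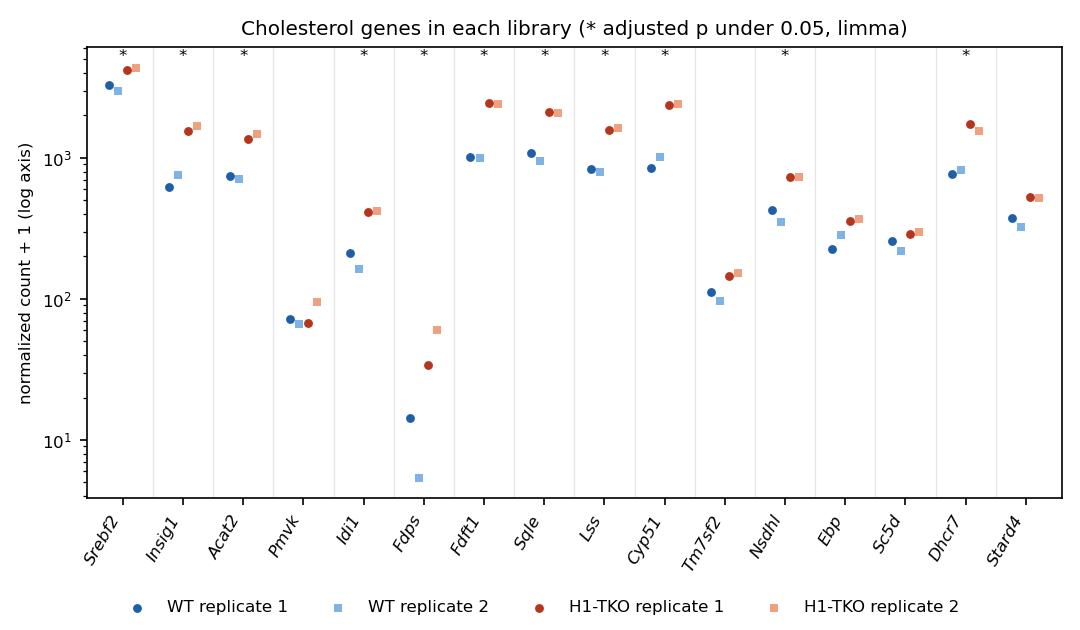
Normalized counts plus 1 (log axis) of cholesterol genes in each library, with regulators first and then the enzymes of the route, with an asterisk for an adjusted p under 0.05 in limma. Genotypes are those of the tables. For Fdft1, Sqle, Cyp51 and Insig1 both H1-TKO points lie above both WT points.

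The start regions of these genes were read because the members moved together. RefSeq (GRCm38.p6) gave 300 bases for 12 of the 19 genes, 250 before and 50 after the start. CCAAT, the box bound by nuclear factor Y, stood on either strand in 11 of them (91.7%), against 37.4% of all 32851 promoters and 42.1% of the tested genes with a promoter. Other motifs were also more frequent there than among the tested genes, TGANNNNGC, the antioxidant response element, in 9 of 12 (75%, against 46.1%) and CACGTG, an E box, in 3 of 12 (25%, against 11.5%). A sterol regulatory element spelled TCACNCCAC stood in 0 of 12, against 1.24% of all promoters and 1.39% of the tested genes. CACCCCAC, its later part, stood in 1 of 12, against 2.87% and 3.6%. A gene counts where any of its promoters holds the motif, while the share of all promoters counts each promoter by itself. A match is a description of these letters and not a binding site. Cyp51 (chr5:4104648-4104947, minus strand), Insig1 (chr5:28071162-28071461, plus strand) and Lss, lanosterol synthase (chr10:76531355-76531654, plus strand), are shown as members that rose, with CCAAT or its reverse complement in capitals.
Cyp51: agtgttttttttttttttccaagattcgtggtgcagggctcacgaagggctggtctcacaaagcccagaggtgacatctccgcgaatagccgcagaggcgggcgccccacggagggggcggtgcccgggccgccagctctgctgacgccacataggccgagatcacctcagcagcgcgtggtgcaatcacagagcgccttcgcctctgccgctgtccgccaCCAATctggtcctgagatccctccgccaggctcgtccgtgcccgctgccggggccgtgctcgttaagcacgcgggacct
Insig1: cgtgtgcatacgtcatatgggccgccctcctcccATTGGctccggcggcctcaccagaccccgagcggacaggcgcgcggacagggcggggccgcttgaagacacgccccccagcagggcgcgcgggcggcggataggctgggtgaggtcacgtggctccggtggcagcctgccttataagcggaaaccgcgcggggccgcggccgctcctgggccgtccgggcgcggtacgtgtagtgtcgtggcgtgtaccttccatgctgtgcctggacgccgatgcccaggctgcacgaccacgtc
Lss: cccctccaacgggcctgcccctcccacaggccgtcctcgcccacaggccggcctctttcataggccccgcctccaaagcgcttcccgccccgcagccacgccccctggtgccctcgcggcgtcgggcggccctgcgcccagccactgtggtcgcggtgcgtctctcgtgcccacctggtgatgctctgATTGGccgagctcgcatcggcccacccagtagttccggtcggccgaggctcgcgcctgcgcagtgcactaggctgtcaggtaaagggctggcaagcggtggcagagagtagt

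Fatty acid genes also moved to the higher side where they changed. Of 17 genes of fatty acid synthesis and elongation 5 rose and none fell (median 0.31), and of 21 genes of fatty acid oxidation 6 rose and none fell (median 0.45). At an unadjusted p under 0.05 in limma 1 and 2 of their members were lower, and with edgeR and DESeq2 none was. Acss2, which makes acetyl-CoA from acetate, had 180.0 and 124.3 in WT against 623.6 and 560.3 in H1-TKO mESCs, and rose by 1.97 ± 0.23 (adjusted p = 0.00398). The elongase Elovl2 rose by 1.80, Elovl5 by 0.61 and Elovl6 by 0.54. Scd1, the main stearoyl-CoA desaturase, went from 1479.5 and 1544.5 to 2584.8 and 2609.9, a rise of 0.78 ± 0.12 (adjusted p = 0.00763). The genotypes did not overlap for any of these 5. The list without losses depends on the chromosomes left out. On chromosome 11 Fasn, the fatty acid synthase, had 11430.8 and 16485.8 in WT against 4430.3 and 4495.1 in H1-TKO mESCs, and Acaca, which supplies its malonyl-CoA, had 1279.3 and 1077.7 against 600.5 and 651.9.

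In oxidation, Cpt1a, which passes fatty acids into mitochondria, had 560.9 and 542.1 in WT against 1083.1 and 1100.6 in H1-TKO mESCs, a rise of 0.98 ± 0.14 (adjusted p = 0.00638). Acad11, an acyl-CoA dehydrogenase, rose by 1.13, Etfa, which takes up its electrons, by 0.85, Hadh by 0.67 and the lipid-sensing receptor Ppard by 0.72. The response element of such receptors stood in 0 of the 18 genes with a promoter, against 0.0396% of all promoters and 0.0729% of the tested genes. Without WT replicate 2 the medians were 0.14 for synthesis and 0.48 for oxidation.

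Among lysosome and autophagy genes 10 of 33 rose and none fell (median 0.39). At an unadjusted p under 0.05 in limma 3 were lower, with edgeR 1 and with DESeq2 none. The protease Ctsb went from 1042.7 and 1180.2 to 2199.2 and 2557.2, a rise of 1.10 ± 0.14 (adjusted p = 0.00501). It was higher in each H1-TKO library than in either WT library. Arsa, a sulfatase, rose by 1.16, Atg5, part of the machinery that forms autophagosomes, by 0.91, and Npc2, which carries cholesterol out of the lysosome, by 0.62. Ctsd, Gla, Lamp2 and Atg12 also rose. Without WT replicate 2 the median was 0.25, with 14 members higher and 3 lower.

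Promoters were found for 25 of the 33 genes. The E box CACGTG, read by factors of the Tfeb and Myc families, stood in 9 of them (36%), against 7.15% of all promoters and 11.5% of the tested genes with a promoter. Its longer form TCACGTGA, which contains the E box, stood in 3 of 25 (12%), against 0.974% of all promoters and 1.98% of the tested genes with a promoter. TGANNNNGC stood in 15 of 25 (60%, against 46.1% of the tested genes) and TCACNCCAC in 2 of 25 (8%, against 1.39%). CCAAT stood in 7 of 25 (28%, against 42.1%). Ctsd (chr7:142387778-142388077, minus strand) and Gla, the lysosomal alpha-galactosidase (chrX:134600956-134601255, minus strand), are shown as members that rose and hold the E box at more than 1 place, in capitals.
Ctsd: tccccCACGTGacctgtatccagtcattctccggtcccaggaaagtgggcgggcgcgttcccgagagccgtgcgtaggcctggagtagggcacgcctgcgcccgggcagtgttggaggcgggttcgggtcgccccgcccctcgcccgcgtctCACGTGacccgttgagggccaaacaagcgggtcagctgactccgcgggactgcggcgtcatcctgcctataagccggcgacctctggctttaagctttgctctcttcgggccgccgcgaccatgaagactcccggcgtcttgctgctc
Gla: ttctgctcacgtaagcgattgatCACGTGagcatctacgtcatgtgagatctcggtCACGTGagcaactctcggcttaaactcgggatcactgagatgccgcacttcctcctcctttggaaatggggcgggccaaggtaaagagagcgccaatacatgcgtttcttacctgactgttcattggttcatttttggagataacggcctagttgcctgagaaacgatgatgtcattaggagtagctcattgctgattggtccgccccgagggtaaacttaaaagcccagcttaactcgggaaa

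The list of actin cytoskeleton genes and targets of serum response factor (Srf) lay on the lower side. Actin filaments carry the shape, adhesion and contraction of cells, and many of their genes are targets of Srf. This factor is switched on when free actin monomers are used up. Of 32 tested members 11 fell and 1 rose, with a median of −0.59. The WT libraries differed from each other over this list, WT replicate 2 being lower than WT replicate 1 by a median of 0.51. The median was −0.94 without WT replicate 2, with 22 members lower and 3 higher, and −0.50 without WT replicate 1, with 15 lower and 5 higher. Acta2 and Tagln are also on the list of fibroblast and feeder genes. Of the 8 tested members of that list 3 fell and 1 rose, and its median of −0.53 turned to 0.47 with a minimum mean of 100. Its part in the result was not tested.

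Acta2, the smooth muscle actin (mm9 chr19:34315580-34329826), had 217.2 and 180.0 normalized counts in WT against 2.2 and 0.0 in H1-TKO mESCs. With only 2 reads in H1-TKO mESCs, the ratio was 187-fold with a 95% counting interval of 51.6 to 1.55e+03 (exact binomial, counting error only), and the adjusted p of limma was 0.00281. Myl6, a light chain of nonmuscle myosin, had 445.3 and 333.8 in WT against 59.5 and 47.4 in H1-TKO mESCs, and fell by 2.84 ± 0.27 on the log2 scale (adjusted p = 0.00234). The regulatory light chain Myl12a fell by 1.56 ± 0.18, from 3658.0 and 2529.5 to 1012.6 and 1050.1 (adjusted p = 0.00402). In all 3 the genotypes were far apart, and the WT libraries differed more than the H1-TKO libraries for both light chains.

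Actb, the cytoplasmic actin and the gene of the list with the most reads, had 36492.7 and 37493.9 in WT against 21261.4 and 19570.9 in H1-TKO mESCs, and fell by 0.86 ± 0.11 on the log2 scale (adjusted p = 0.00457). Tln1, which ties integrins to actin, went from 3139.7 and 2702.9 to 1523.8 and 1561.9 and fell by 0.92 (adjusted p = 0.00629). For both the WT libraries were near each other. Tagln, an actin-binding protein of smooth muscle, differed between the WT libraries, with 2018.7 and 436.3, but lay at 47.4 and 54.8 in H1-TKO mESCs (−4.18). Myl9, whose protein is a light chain of smooth muscle and nonmuscle myosin, had 254.5 and 140.7 in WT against 14.3 and 1.1 in H1-TKO mESCs. Srf itself, with 1206.4 and 843.2 against 707.4 and 744.6, did not pass the test (−0.47, adjusted p = 0.12). Fos, an immediate early gene, was the member that rose, by 1.05 (adjusted p = 0.0489 in limma), while no member was higher with edgeR or DESeq2.

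Promoters were found for 26 of the 32 genes. The CArG box, the site of Srf, stood in 6 of them (23.1%), those of Cnn2, Fhl1, Myl6, Myl9, Srf and Vcl. Its share was 1.63% of all promoters and 1.46% of the tested genes with a promoter. The list was chosen to include Srf targets, so a high share of this box is in part built into it. CACCCCAC stood in 3 of 26 (11.5%, against 3.6% of the tested genes) and CCAAT in 13 of 26 (50%, against 42.1%). The E box CACGTG stood in 2 of 26 (7.69%, against 11.5%). Myl9 (chr2:156775214-156775513, plus strand) and Cnn2, a calponin (chr10:79988350-79988649, plus strand), are shown as members that fell, with the box in capitals.
Myl9: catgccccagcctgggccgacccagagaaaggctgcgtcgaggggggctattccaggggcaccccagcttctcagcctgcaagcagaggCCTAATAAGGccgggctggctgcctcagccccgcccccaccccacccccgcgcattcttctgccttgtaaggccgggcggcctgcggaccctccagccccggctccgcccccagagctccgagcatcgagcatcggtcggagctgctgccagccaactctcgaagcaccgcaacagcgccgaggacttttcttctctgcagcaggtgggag
Cnn2: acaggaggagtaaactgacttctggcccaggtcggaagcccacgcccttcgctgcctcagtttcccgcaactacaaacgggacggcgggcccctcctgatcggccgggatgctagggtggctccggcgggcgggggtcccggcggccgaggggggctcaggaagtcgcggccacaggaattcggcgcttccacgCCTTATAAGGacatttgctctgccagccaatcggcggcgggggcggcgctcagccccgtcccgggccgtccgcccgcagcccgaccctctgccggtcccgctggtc

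Intermediate filament genes fell as well where they changed, 6 of 13 tested members and none higher, with a median of −0.68. None was higher at an unadjusted p under 0.05 in limma, or with edgeR or DESeq2. Ina and Nefl, subunits of neuronal filaments, had near-equal WT libraries. Ina had 643.9 and 650.1 in WT against 191.7 and 143.2 in H1-TKO mESCs and fell by 1.96 ± 0.21 on the log2 scale (adjusted p = 0.00314), and Nefl had 451.5 and 415.6 against 144.3 and 114.8. The keratin Krt8 and nestin (Nes) had unequal WT libraries, at 1437.6 and 314.1 for Krt8 and 2920.2 and 848.6 for Nes, and were at 72.7 and 112.7 and at 203.8 and 224.3 in H1-TKO mESCs. Lmnb1, of the nuclear lamina, fell by 0.60 (adjusted p = 0.018). The median of this list turned to 0.38 when accessions with a mean of at least 1 were kept.

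Genes of adhesion and of the matrix changed in both directions. Of 43 genes of the extracellular matrix 8 fell and 6 rose (median 0.36, and −0.14 among those with a mean of at least 100). The median was 0.09 without WT replicate 2, with 12 higher and 13 lower, and 0.47 without WT replicate 1, with 20 higher and 11 lower. Hspg2, the basement membrane proteoglycan perlecan, had 9528.5 and 7044.2 in WT against 3450.8 and 3645.2 in H1-TKO mESCs (−1.21, adjusted p = 0.00508), while the collagen chain Col5a3 went from 28.7 and 43.6 to 240.2 and 264.4 (2.80, adjusted p = 0.00354). Thbs1, an adhesive glycoprotein, had unequal WT libraries, at 1797.6 and 391.6, and 55.1 and 28.4 in H1-TKO mESCs. Matrix proteases and their inhibitors had 6 of 23 members lower and 2 higher (median −0.39, −1.02 without WT replicate 2 and −0.65 with edgeR), with the membrane protease Mmp14 at 493.4 and 274.9 in WT against 90.3 and 47.4 in H1-TKO mESCs. Of 20 cadherins and protocadherins 5 fell and 1 rose (median −0.92), and of 11 integrin genes 2 fell and 1 rose (median −0.77, and −0.51 without WT replicate 1). Celsr3, an adhesion receptor of planar polarity, had 339.8 and 367.6 in WT against 77.1 and 71.6 in H1-TKO mESCs (−2.23, adjusted p = 0.00282).

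Guidance molecules gave 7 of 29 members lower and 5 higher (median −0.10, and 0.03 with a minimum mean of 1). With edgeR 7 were lower and 2 higher, and with DESeq2 7 and 3. Epha2, an ephrin receptor, had close WT libraries, 1747.1 and 1872.8, and lay at 712.9 and 825.7 in H1-TKO mESCs (−1.24 ± 0.14, adjusted p = 0.00369). The secreted semaphorins Sema3c and Sema3e were at 3.3 and 2.1 and at 28.6 and 9.5 in H1-TKO mESCs, while their WT libraries differed widely, at 190.9 and 37.1 and at 704.4 and 162.5. Sema4g, a membrane-bound semaphorin, rose by 1.24. Of 16 tight junction genes 2 rose and 1 fell.

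Hedgehog signalling had few members, and 4 of the 9 tested fell. In this pathway the receptor Ptch1 restrains Smo, and Smo passes the signal on to the Gli factors, which in turn activate Ptch1 and Gli1. Smo had 689.7 and 447.2 in WT against 160.9 and 153.8 in H1-TKO mESCs, and fell by 1.81 ± 0.25 on the log2 scale (adjusted p = 0.00563). Gli3 had 513.6 and 344.7 against 130.0 and 143.2 (−1.62), Ptch1 1035.7 and 729.7 against 424.2 and 449.7 (−0.99), and Gli1 695.1 and 772.3 against 434.1 and 509.8 (−0.64, adjusted p = 0.0361). In each of the 4 the H1-TKO libraries were below the WT libraries. Boc, a coreceptor, rose by 1.58, from 56.6 and 37.1 to 148.7 and 129.5. Gli2 lies on chromosome 1 and was left out. The median of the list was −0.64, and it was −0.62 without WT replicate 2. The letters TGGGTGGTC, a Gli site, stood in 0 of the 6 genes with a promoter, against 0.253% of all promoters and 0.292% of the tested genes.

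Notch signalling had 5 of 21 members higher and 2 lower (median 0.17, and 0.05 with a minimum mean of 1). Its target Hes1, a repressor, had 172.2 and 174.5 in WT against 360.3 and 348.6 in H1-TKO mESCs (1.03 ± 0.19, adjusted p = 0.0139), and Nrarp, a target that damps the pathway, rose by 1.15. The receptors went in opposite directions, Notch3 rising by 0.59 and Notch2 falling by 0.97. FGF and ERK genes gave 4 of 24 higher and 5 lower, with the ligand Fgf17 at 593.5 and 482.1 in WT against 95.9 and 54.8 in H1-TKO mESCs and the receptor Fgfr4 at 41.9 and 74.2 against 362.5 and 280.2. Wnt genes gave 2 of 30 higher and 4 lower, but 4 higher and 3 lower with edgeR and 3 higher and 2 lower with DESeq2. Genes of TGF-beta, Nodal and BMP signalling gave 2 of 31 higher and 3 lower. Insulin and IGF signalling had 1 of 19 lower, Igf2bp2, and the 8 genes of retinoic acid signalling had no call in limma or edgeR, 3 at an unadjusted p under 0.05 in limma and 1 in DESeq2.

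Genes that build ribosomes fell in greater number than they rose. Of 36 ribosome biogenesis genes 10 fell and 2 rose, with a median of −0.34 and of −0.25 without WT replicate 2. Fbl, the methyltransferase of ribosomal RNA, had 567.9 and 811.5 in WT against 195.0 and 203.3 in H1-TKO mESCs, and fell by 1.76 ± 0.22 on the log2 scale (adjusted p = 0.00436). Gar1, of the pseudouridine particles, had 782.8 and 834.4 against 279.9 and 249.6 (−1.61 ± 0.17, adjusted p = 0.003). Utp20, a scaffold of the small subunit precursor, had more reads and a smaller fall, from 5101.8 and 4668.5 to 2980.4 and 2979.5 (−0.71). Imp3, of the same precursor, rose by 0.96. The H1-TKO libraries lay close together for the members that fell among these, and below both WT libraries. Of 68 cytosolic ribosomal protein genes 22 fell and 4 rose (median −0.46, and −0.26 among those with a mean of at least 100). These genes have many processed copies and only reads mapped to 1 place were counted, so their levels are uncertain. The part of this in the result was not tested.

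Proteasome and heat shock genes fell in greater number than they rose. Of 31 proteasome genes 9 fell and 1 rose (median −0.18, and −0.09 with quantile normalization and with totals without the ribosomal RNA precursor). Psmb5, a catalytic subunit, had 520.6 and 485.4 in WT against 163.1 and 202.2 in H1-TKO mESCs (−1.46 ± 0.20, adjusted p = 0.00578), and the base subunit Psmc4 had 2931.0 and 3291.9 against 1578.9 and 1872.6 (−0.85). Psmb8, which replaces Psmb5 in the immunoproteasome, was at 80.7 and 22.9 in WT against 0.0 and 1.1 in H1-TKO mESCs, a ratio of 105-fold with a 95% counting interval of 18.5 to 4.19e+03. Of 18 heat shock genes 4 fell and 1 rose (median −0.18, −0.03 with quantile normalization and −0.04 without WT replicate 2). Hsph1, a large heat shock protein, had 3148.3 and 3621.3 in WT against 1486.3 and 1432.4 in H1-TKO mESCs (−1.21 ± 0.13, adjusted p = 0.00314), and Hspa8, the constitutive chaperone, fell by 1.01. Hspb8, a small heat shock protein, rose by 1.45, and in the endoplasmic reticulum Hsp90b1 rose by 0.92 and Pdia6 by 0.74, with 2 of 20 members higher and 1 lower.

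Redox genes were divided. Of 33 genes of the antioxidant response 6 rose and 4 fell (median 0.24). Without WT replicate 2 the median was 0.03, with 10 members higher and 8 lower. Txn1, thioredoxin, went from 3123.4 and 2925.4 to 5245.6 and 5527.3 (0.83 ± 0.11, adjusted p = 0.00572), whereas Sod1, a superoxide dismutase, went from 2726.2 and 3147.9 to 1522.7 and 1459.8 (−0.97 ± 0.13, adjusted p = 0.0055). Among the glutathione transferases Gstp1 had 370.8 and 539.9 in WT against 114.6 and 133.8 in H1-TKO mESCs (−1.85), and Gstt1 rose by 2.11. The element TGANNNNGC stood in 14 of the 29 genes of the list with a promoter (48.3%), against 41.3% of all promoters and 46.1% of the tested genes, and TCACNCCAC in 3 of 29 (10.3%) and the CArG box in 2 of 29 (6.9%). Of 30 genes of apoptosis and p53 targets 7 rose and 2 fell (median 0.31, and 0.19 with a minimum mean of 1). Bmf and Bbc3, which promote cell death, rose by 1.60 and 0.83, and Bak1, which does so at the mitochondrion, fell by 1.21.

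The lists of glycolysis, the citric acid cycle, oxidative phosphorylation and mitochondrial ribosomal proteins had shares of calls near or below those of all genes, 9.42% upwards and 9.67% downwards. Of 21 glycolysis genes 2 rose and 2 fell (9.52% each). Slc2a1, the main glucose transporter, had 6970.7 and 7376.8 in WT against 3436.5 and 3661.0 in H1-TKO mESCs (−1.02 ± 0.11, adjusted p = 0.00343), and Gpi1, of the second step, fell by 0.69. The lactate transporter Slc16a1 rose by 0.41. The citric acid cycle had 1 of 19 genes higher and 1 lower, and oxidative phosphorylation 3 of 56 higher (5.36%) and 6 lower (10.7%). Mitochondrial ribosomal proteins had 6 of 55 higher (10.9%) and 4 lower (7.27%), with Mrpl42 at 1139.7 and 973.0 in WT against 2647.6 and 2596.2 in H1-TKO mESCs (1.32). The hypoxia list had 2 of 21 genes higher and 3 lower, and nucleotide synthesis with the pentose phosphate route had 5 of 20 higher and 2 lower.

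Amino acid and folate metabolism held 1 of the larger rises. Aldh1l1, which oxidizes formyl-tetrahydrofolate, had 70.6 and 126.5 in WT against 626.9 and 647.7 in H1-TKO mESCs (2.74 ± 0.29, adjusted p = 0.00314), and Psph, of serine synthesis, rose by 0.85, while 1 of the 16 genes of the list, Mat2a, fell. In the integrated stress response 1 of 15 genes, Asns, rose, by 0.69. Among 146 solute carriers 16 rose and 7 fell (median 0.16, and 0.25 without H1-TKO replicate 2). Slc25a23, a mitochondrial carrier of ATP and phosphate, had 236.6 and 210.5 in WT against 997.1 and 994.2 in H1-TKO mESCs (2.15 ± 0.16, adjusted p = 0.00135), and Slc39a7, a zinc transporter, fell by 2.45 (adjusted p = 0.0068). Of 41 ion channel genes 3 rose and 3 fell.

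Cell cycle genes had calls in both directions. Of 30 DNA replication genes 4 rose (13.3%) and 5 fell (16.7%), beside 9.42% and 9.67% of all genes. With edgeR 4 rose and 3 fell, and with DESeq2 3 and 3. Pcna, the sliding clamp, had 1459.3 and 2197.9 in WT against 783.4 and 795.2 in H1-TKO mESCs (−1.18, adjusted p = 0.0104), and Rfc5, of the clamp loader, fell by 0.78. Of 26 mitosis genes 4 rose and 1 fell (median 0.28), and their share of calls, 19.2%, was near the 19.1% of all genes. Cdc25c, the phosphatase that starts mitosis, went from 356.9 and 342.5 to 689.7 and 696.2 (0.98 ± 0.16, adjusted p = 0.00878), and both cyclins of mitosis, Ccnb1 and Ccnb2, rose by 0.56.

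Genes of cell state changed in both directions. Of 16 naive pluripotency genes 5 rose and 3 fell, but 3 and 3 did with edgeR and 4 and 4 with DESeq2, and the median of 0.20 turned to −0.08 without WT replicate 1 and with a minimum mean of 1. Among them was Sox2 at 3958.2 and 5440.7 in WT against 9653.9 and 9460.0 in H1-TKO mESCs (1.04 ± 0.16, adjusted p = 0.00773). Of 18 genes of the formative and primed state 8 fell and 1 rose (median −0.77), with the zinc finger factor Zic2 at 189.3 and 288.0 against 13.2 and 13.7 (−4.02). Of 27 germline genes 4 rose and none fell (1 was lower at an unadjusted p under 0.05 in limma, and none with edgeR or DESeq2), among them Rec8, the cohesin subunit of meiosis, at 197.8 and 241.1 against 1032.4 and 1041.6 (2.24). The lists of primitive endoderm, mesoderm, neural and trophoblast genes had 10 to 12 tested members each and 2 or 3 calls each. On the trophoblast list 2 members rose and 1 fell (1 and 1 with edgeR), and on the neural list 2 rose and 1 fell. The shorter sets of markers gave other values, the trophoblast markers summing to 352.2 and 138.5 in WT against 149.8 and 116.9 in H1-TKO mESCs, and the neural markers to 931.8 and 1449.6 against 609.3 and 659.3. Most of the neural sum was Tubb3, a tubulin, with 915.5 and 1399.4 in WT against 600.5 and 634.0 in H1-TKO mESCs. Of 19 homeobox genes 2 fell and 1 rose, and 2 and 2 did with edgeR and with DESeq2.

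Chromatin genes outside the knocked-out set included 2 linker histones that rose. H1f0 had 571.0 and 463.6 in WT against 1943.6 and 2118.0 in H1-TKO mESCs (1.98 ± 0.16, adjusted p = 0.00142), and H1f10 140.4 and 134.2 against 452.8 and 401.3. H1f5 had 6.2 and 44.7 in WT against 0.0 and 2.1 in H1-TKO mESCs (−3.36), which did not pass in limma. H1f1, at 8.5 and 34.9 against 4.4 and 13.7 (−1.05), did not pass either. The median of the 6 tested linker histones, H1f2 and H1f3 among them, was −1.06, and 2 were lower with DESeq2. Of 25 heterochromatin and polycomb regulators 4 fell and 2 rose, with Kdm2b, which recruits a polycomb complex to CpG islands, at 498.1 and 411.2 in WT against 108.0 and 155.9 in H1-TKO mESCs (−1.79). Of 247 Zfp genes 24 fell and 5 rose, which is 9.72% and 2.02%, against 9.67% and 9.42% of all genes. Of 27 imprinted genes 10 fell and 3 rose, and of 16 interferon response genes 5 fell and 1 rose. Replication-dependent histone genes had a median of −2.60, with 5 of 21 lower and 1 higher, and of −1.59 without WT replicate 2 and −3.63 without WT replicate 1, but WT replicate 2 exceeded WT replicate 1 by a median of 2.63 over the same genes, and their messages lack a poly(A) tail.

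Single genes with many reads also changed. Where the mean was 1000 or more, Sdc4, the cell surface proteoglycan syndecan-4 (mm9 chr2:164249747-164269387), went from 819.3 and 974.1 in WT to 3519.1 and 3778.9 in H1-TKO mESCs (2.03 ± 0.14, adjusted p = 0.00104). Esco2, which acetylates cohesin during replication (mm9 chr14:66437875-66452831), went from 1826.3 and 1607.8 to 5459.4 and 5722.1 (1.71 ± 0.12, adjusted p = 0.0012), and the kinase Plk2 from 731.6 and 513.7 to 1922.6 and 1721.0 (1.57). Plk2 is also on the list of apoptosis and p53 targets. Dnah8, a dynein heavy chain of sperm tails, rose by 1.77, and Upf2, of nonsense-mediated decay, by 1.36. Klf4, a pluripotency factor on the naive list, rose by 1.45 (adjusted p = 0.0371), but its WT libraries were at 673.4 and 1747.4.

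On the lower side, Lars2, the mitochondrial leucyl-tRNA synthetase, had 9876.1 and 19560.7 in WT against 2735.8 and 2506.7 in H1-TKO mESCs (−2.41, adjusted p = 0.00384). Its WT libraries differed in the same direction as the ribosomal RNA precursor, and the part of this in the result was not tested. Lrp2, the endocytic receptor megalin, had 3166.1 and 1150.8 against 300.8 and 350.7 (−2.55), and the carbonic anhydrase Car2 had 3441.5 and 801.7 against 317.3 and 442.4. Here WT replicate 1 was the high library. Gm6548, listed as a pseudogene, had 4672.0 and 4677.2 in WT against 192.8 and 201.2 in H1-TKO mESCs (−4.56 ± 0.13, adjusted p = 2.9e-05). Gm6548, Rps15a-ps4 and Ubb-ps are copies of other genes with which they can share reads, so their values are uncertain.

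Where the mean was 50 or more, the 10 largest falls included Meg3, Rian, Mirg and AF357359, which lie in 1 imprinted cluster on chromosome 12, as well as Rps15a-ps4 (−7.17) and Acta2. AF357359 had 635.4 and 344.7 in WT and no read in H1-TKO mESCs, at least 319-fold lower against a floor of 3 reads over both libraries. Anxa1, an annexin of the cell membrane, had 457.0 and 142.9 in WT against 9.9 and 0.0 in H1-TKO mESCs, and Kctd12b 208.7 and 49.1 against 0.0 and 4.2. The 10 largest rises were in genes with low counts in WT. These genes passed the mean of 50 only through the H1-TKO libraries, so their low WT counts follow from the choice. Ovgp1, an oviduct glycoprotein, went from 21.7 and 18.5 to 293.1 and 311.8 (3.85 ± 0.30, adjusted p = 0.00135), Rgcc, a regulator of the cell cycle, from 7.0 and 9.8 to 242.4 and 244.3, and Tex13b from 2.3 and 4.4 to 216.0 and 265.4. Hal, Otog, Spata21, Kazn, Klk1, Adgrd1 and H2ac7 made up the rest, with rises of 3.03 to 4.30.

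Calls became more frequent with expression. In the class with a mean of 10 to 30, 6.91% of 1664 accessions changed, and in the class over 3000, 28.5% of 326, with 15.2%, 20.1%, 23.3% and 27.5% in the classes between them. The median absolute difference between the WT libraries fell over the same classes from 0.71 to 0.22. The part of this in the share of calls was not tested. The median size of a called change fell as well, from 2.70 to 0.67. Among accessions with a mean of at least 1000, 250 fell and 172 rose, while among those below it 596 fell and 650 rose. This split among the abundant accessions depended on the scaling, with 260 higher and 207 lower under quantile normalization, 240 higher and 200 lower with totals without the ribosomal RNA precursor, and 181 higher and 232 lower with TMM scaling.

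By kind of accession, 810 of 8428 protein-coding accessions rose (9.6%) and 812 fell (9.6%). Of 421 non-coding ones 12 rose (2.85%) and 34 fell (8.08%), beside 9.29% and 9.56% of all accessions. The non-coding falls include Meg3, Rian, Mirg and AF357359 of 1 imprinted cluster. Of 272 long non-coding RNAs 8 rose (2.94%) and 17 fell (6.25%). Of 72 transcribed pseudogenes 3 rose (4.17%) and 13 fell (18.1%), and 2 of 29 small nucleolar RNAs fell (6.9%).

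Reactome lists, drawn up outside the study, gave a survey over 508 functions with at least 10 tested genes each. Many of these lists share members. The highest was cholesterol biosynthesis, at 0.98 with 9 of 15 genes higher and none lower, followed by formation of the fibrin clot at 0.92, with 4 of 12 higher. Sialic acid metabolism, synthesis of phosphatidic acid, striated muscle contraction, CD28 co-stimulation, lipid digestion and transport, and glutathione conjugation came next, with medians of 0.46 to 0.52. DNA methylation, a list made up largely of histone genes, was the lowest at −2.57, with 3 of 15 lower, and WT replicate 2 exceeded WT replicate 1 there by a median of 2.56. Formation of the beta-catenin and TCF complex was among the next lowest at −0.90, with 5 of 20 lower and 2 higher. Demethylation of histones, methylation of histone arginines, elastic fibre formation, senescence after telomere stress and silencing of ribosomal RNA genes lay between −0.72 and −0.62. Several of these lists hold the same histone genes.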

How the data were processed

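RNA of 2 WT and 2 H1-TKO mESC libraries was examined. Paired-end reads were mapped by the authors to mm9 using Subread. They counted reads mapped to 1 place with featureCounts and scaled them with DESeq2. The deposited signal is this normalized count per RefSeq accession, and all values (100%) were whole multiples of 1 read within 0.001. Symbols (33650 of 34010 accessions) came from a RefSeq table of GRCm38.p6 and places (31089) from GENCODE M1 of mm9. For 274 of the accessions kept the chromosome came from the RefSeq table only, and 88 without a chromosome were left out.

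limma 3.58.1 (R 4.3.3) was run on log2(normalized count + 1) with a trend over 11113 accessions, 2 against 2 libraries, with Benjamini-Hochberg adjustment over all of them. The script was tested on simulated data. edgeR 4.0.16 and DESeq2 1.42.0 on recovered reads were alternatives, with other pseudocounts, minimum means, scalings, a replicate block and each library left out. Scaling by totals without the top accession, an unmoderated linear model and list counts without WT replicate 2 were added after seeing the data.

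Lists of genes by function and Reactome lists from an R package (20 to 300 genes, 95.7% of identifiers matched) were described with 1 accession per gene, that of the highest mean. Members and lists were chosen with earlier results of these data known. Named genes are the linker histones, among calls without overlap between genotypes the 10 largest changes in each direction with a mean of at least 50 and the 8 with a mean of at least 1000, and up to 5 members of a list by adjusted p, or 2 by mean where none passed. Other members named were chosen after their values were seen. The 11 motifs, searched on both strands, were chosen after the list results were seen. They include a looser sterol regulatory element, in 1 of 12 cholesterol promoters and 0.524% of all promoters and 0.511% of the tested genes, and a longer lysosomal E box, in 0 of 25 lysosome promoters and 0.326% of all promoters and 0.773% of the tested genes. Figures were drawn with matplotlib 3.10.9. Some genes and lists that the rule names are not reported here.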

Additional observations from a re-analysis of the deposited data

How the results depend on the processing

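With all 4 libraries, 620 of 638 list medians over the alternatives moved by less than the median replicate SD of the list's single genes. That SD is wider than the spread of a list median, so this count does not measure how stable the medians were. Of 58 lists 33 kept 1 sign in every alternative. Of 244 named accessions called, 240 were still called by edgeR's quasi-likelihood test and 239 by DESeq2. These accessions were chosen in the same data, most of them by adjusted p or fold change. Counts of named calls kept, here and below, are therefore not support. Accessions called higher and lower numbered 512 and 535 with a minimum mean of 1, where 51 named calls were lost. An unmoderated linear model gave 0 and 0 at an adjusted p under 0.05, with 1919 accessions at an unadjusted p under 0.05, while edgeR gave 790 and 773 and DESeq2 839 and 903, against 822 and 846 with limma. The ranges were 137 to 2130 higher and 255 to 2012 lower when 1 library was left out. Higher and lower accessions numbered 2130 and 2012 without WT replicate 1, 1880 and 1948 without WT replicate 2, 145 and 269 without H1-TKO replicate 1, and 137 and 255 without H1-TKO replicate 2. Without either WT library 243 of the named calls were kept, and without either H1-TKO library 126. H1f2 turned from −1.07 to 0.02 without WT replicate 2 and was at −2.17 without WT replicate 1.

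With the replicate block 1158 accessions rose and 1271 fell. Same-numbered libraries did not deviate together (correlation 0.011), so the numbers do not pair the samples.

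With a minimum mean of 1 the medians were −0.02 for serine and one-carbon metabolism, −0.11 for the integrated stress response, 1.32 for blood markers, −0.37 for cadherins, 0.38 for keratins and intermediate filaments and 0.44 for ion channels. With a minimum mean of 100 they were 1.80 for linker histones, −1.15 for primitive endoderm, −2.19 for trophoblast, 0.13 for germline, 0.47 for fibroblast markers, 0.14 for blood markers, −0.14 for extracellular matrix, −1.62 for intermediate filaments, −0.31 for neurotransmitter receptors, −0.45 for synapse and −0.69 for homeobox genes. Quantile normalization gave −0.03 for heat shock genes. With 1 library left out the medians ranged from −0.24 to 0.06 for oxidative phosphorylation, from 0.03 to 0.20 for serine metabolism, from −0.02 to 0.29 for endoplasmic reticulum folding, from −0.18 to −0.04 for heat shock, from 0.08 to 0.35 for the two-cell-like state, from −1.02 to −0.52 for matrix proteases and from −0.94 to −0.50 for actin genes. The causes were not tested. Low counts limit what can be seen below a mean of about 30, and with 2 libraries per genotype each estimate of spread leans on the trend over all genes.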
